A study of Mus musculus with 6 samples.

Results

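Tight junctions seal the space between neighbouring epithelial cells near their apical side, and they are built from claudins, which form the strands, and from occludin and junctional adhesion molecules, which lie in the same membrane contacts. Zonula occludens (ZO) proteins and cingulin bind these membrane proteins from the cytoplasm and tie them to actin. The amount and choice of claudins differ between epithelia, and in the mammary gland the luminal cells carry these junctions. Here 9 tight junction genes, chosen by symbol for their roles in the junction, were followed: the claudins Cldn1, Cldn3, Cldn4 and Cldn7, the occludin gene Ocln, the ZO genes Tjp1 and Tjp3, the cingulin gene Cgn and F11r, which encodes junctional adhesion molecule A. All 9 were found among the 52636 Ensembl genes counted.

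RNA was sequenced from 3 biological replicates each of J110 and SSM3 cells, both mouse mammary tumour lines kept in culture. J110 cells came from transgenic mice in which the MMTV LTR drives an AIB1 cDNA, and SSM3 cells from mammary tumours of 129SvEv mice, so each origin is represented by 1 line. Both were grown in DMEM/F12 with serum, insulin and hydrocortisone, but SSM3 medium held more serum, β-mercaptoethanol and transferrin and SSM3 cells were kept at a higher CO2 level. Origin, strain and culture conditions therefore cannot be told apart from the line.

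Total counts lay between 4200785 and 5416305 per library, and 3 counts, taken as the floor of a library, corresponded to between 0.578 and 0.668 CPM (counts scaled to a common library size, with TMM factors). These limits, and the intervals on ratios of counts below, cover counting error only. The kit reads the 3′ ends of transcripts, so CPM was not divided by length, and levels are compared between lines and not between genes. The labels were not checked by the transgene: Ncoa3, the AIB1 gene, was counted in both lines, with J110 at 21.2 ± 0.166 CPM and SSM3 at 39.9 ± 2.65 CPM (SD, n = 3 each). A 3′ tag outside a transgenic segment says nothing about it, and Ncoa3 shares 154 bp of exon with Sulf2 on the opposite strand, which had counts from 337 to 356 in J110 and from 960 to 1021 in SSM3, so its count is also uncertain. Of 16 genes with at least 1000 counts in every SSM3 library and at most 3 in the other J110 libraries together, 15 had counts in J110 replicate 3, at 0.196% of their SSM3 level. In SSM3 replicate 2, 11 of 11 such genes of J110 had counts, at 0.381%. The epithelial markers split: Krt8, Krt18 and Krt7 were abundant in both lines, while Epcam had 2, 1 and 7 counts in J110 against 2376, 2404 and 2412 in SSM3, and Cdh1 had 21, 11 and 28 against 6019, 6369 and 7179. Fibroblast markers summed to 1.54 to 4.38 CPM in J110 and 1340 to 1480 CPM in SSM3, and in SSM3 nearly all of this was Dcn, with 6643, 6698 and 6712 counts against 0, 1 and 12 in J110, while Col1a2 and Lum were at 0, and leukocyte markers summed to at most 1.98 CPM in any library. The part of other cell types in the results below was not tested.

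Of the 9 genes, 7 rose and 1 fell in SSM3 against J110, and Cldn1, at low counts in both lines, did not pass the filter and was not tested. Cldn3, Cldn4, Cldn7 and Ocln were at or near 0 in J110 and abundant in SSM3. Tjp3, Cgn and F11r were counted in both lines and were higher in SSM3, whereas Tjp1 was higher in J110. The test was edgeR's quasi-likelihood test over 12284 genes with Benjamini-Hochberg adjustment. Of all genes tested, 77.9% were called at an adjusted p under 0.05, with 38.6% higher and 39.2% lower in SSM3, so that a call alone did not set these genes apart. Of the 8 genes tested, 5 (Cldn3, Cldn4, Cldn7, Ocln and Tjp3) had under 10 counts in every J110 library and passed the filter only through SSM3. The other 3 (Tjp1, Cgn and F11r) had at least 10 counts in every library. The lines did not overlap in any of the 9 genes, as in 79.6% of all genes tested. A test for a change beyond 2-fold called 34.8% of all genes and all 8 of these, but the 5 that passed the filter only through SSM3 had to differ, so that count is a description, and Tjp1, Cgn and F11r were the 3 called without that limit. In these bulk samples, fewer cells with a transcript and less of it per cell cannot be told apart.

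**Figure D1:**
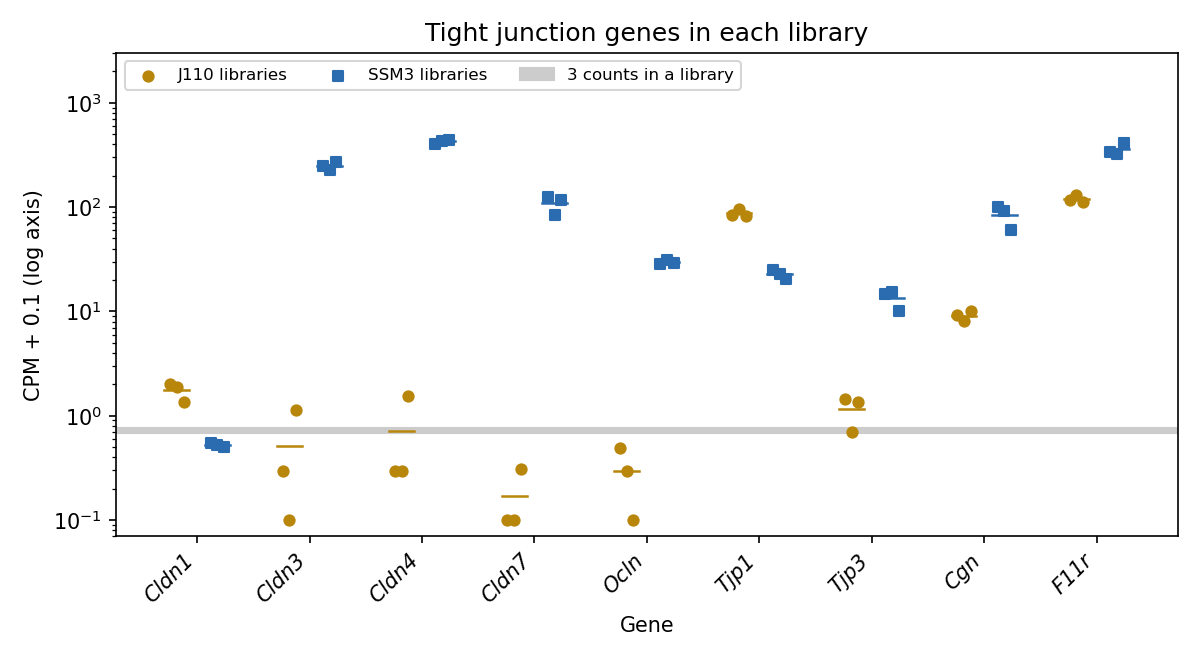
CPM plus 0.1 on a log axis for the 9 tight junction genes in each of 6 libraries, with circles for J110, squares for SSM3, short lines for the mean of a line and a grey band for 3 counts in a library. Cldn3, Cldn4, Cldn7 and Ocln lie near or under the band in J110 and from 28.5 to 439 CPM in SSM3, while Cldn1 and Tjp1 are the genes with J110 above SSM3.

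Cldn4 (ENSMUSG00000047501, chromosome 5 of mm10 from 134945119 to 134946934, reverse strand) and Cldn3 (ENSMUSG00000070473, chromosome 5 from 134986214 to 134987472, forward strand) encode strand-forming claudins that are also known as receptors of a clostridial enterotoxin. Both have a single exon in the annotation, and they lie 39279 bp apart. Cldn4 had 1, 1 and 7 counts in J110 replicates 1 to 3 and 1810, 2047 and 2204 counts in SSM3. Cldn3 had 1, 0 and 5 counts in J110 and 1107, 1072 and 1366 in SSM3. For both genes most of the few J110 counts fell in replicate 3, and all SSM3 libraries stood far above all J110 libraries.

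In CPM, Cldn4 stood at 0.617 ± 0.731 in J110 and at 425 ± 19.5 in SSM3 (SD, n = 3 each), and edgeR fitted a change towards SSM3 of 9.41 on the log2 scale (SE 0.20, adjusted p = 5.91e-16). Cldn3 was at 0.412 ± 0.555 and 249 ± 22.2 CPM (SD, n = 3 each), log2 fold change 9.19 (SE 0.24; edgeR, adjusted p = 4.41e-15). In J110 replicate 3, Cldn4 stood at 0.343% and Cldn3 at 0.420% of the SSM3 mean, beside the 0.196% of the genes above. The part of such counts in the J110 values was not tested. Without J110 replicate 3 the log2 fold changes were 10.90 for Cldn4 and 10.97 for Cldn3. Cldn3 shares 40 bp at its 3′ end with Wbscr25 on the opposite strand, which had 1, 0 and 2 counts in J110 and 490, 455 and 726 in SSM3, and since the strand setting of the counting is not given, the Cldn3 count is uncertain by reads of this overlap. Cldn4 shares no exon with another counted gene.

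Cldn7 (ENSMUSG00000018569, chromosome 11 from 69964779 to 69967885, forward strand), a claudin found along the sides of epithelial cells as well as at tight junctions, had 0, 0 and 1 counts in J110 and 564, 391 and 586 in SSM3. In SSM3 this was 108 ± 22.4 CPM (SD, n = 3), with replicate 2 the lowest. The ratio of counts per scaled library was 1630 in favour of SSM3, with an exact 95% interval from counting alone of 291.9 to 64370, wide because 1 J110 count carries it. By edgeR, the adjusted p was 1.85e-13. The fitted log2 fold change of 10.20 depends on the prior count, and was 12.05 without J110 replicate 3, the library with that count, and 9.54 with limma-voom.

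Ocln (ENSMUSG00000021638, chromosome 13 from 100496507 to 100552718, reverse strand) encodes occludin, a membrane protein with 4 passes that lies along claudin strands. It had 2, 1 and 0 counts in J110 and 128, 145 and 145 in SSM3. Each J110 library was under the floor, and the SSM3 libraries lay close together at 29.4 ± 1.23 CPM (SD, n = 3). The ratio of counts was 147 (exact 95% counting interval 50.05 to 717), and the adjusted p was 8.25e-12 from edgeR's test. The fitted log2 fold change moved from 7.03 to 7.84 without J110 replicate 1, which held 2 of the 3 J110 counts, and to 7.97 when all libraries were thinned to the smallest.

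Cldn1 (ENSMUSG00000022512, chromosome 16 from 26356642 to 26371841, reverse strand), whose protein seals the barrier of the skin and of many other epithelia, was nearly uncounted. It had 10, 9 and 6 counts in J110 and 2 counts in each SSM3 library, or 1.65 ± 0.355 and 0.423 ± 0.0238 CPM (SD, n = 3 each). All SSM3 libraries were under the floor, and J110 lay above them without overlap. With a filter that kept every gene with a count, Cldn1 had a log2 fold change of -1.89 and an adjusted p of 0.0107 from edgeR's test, so the claudin with the opposite direction was also the one with the least data.

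The promoters of the genes that moved together most, Cldn3, Cldn4, Cldn7 and Ocln, are given here with that of Tjp1, which went the other way, so that their letters can be set beside the counts. The sequences are RefSeq windows in the GRCm38.p6 build, from 250 bases before to 50 after an annotated start site, written 5′ to 3′ on the strand of the gene, and capitals mark CACCTG or its reverse complement CAGGTG, the E-box letters that SNAIL and ZEB repressors are known to bind.
Cldn3, chr5:134985964-134986263, forward strand: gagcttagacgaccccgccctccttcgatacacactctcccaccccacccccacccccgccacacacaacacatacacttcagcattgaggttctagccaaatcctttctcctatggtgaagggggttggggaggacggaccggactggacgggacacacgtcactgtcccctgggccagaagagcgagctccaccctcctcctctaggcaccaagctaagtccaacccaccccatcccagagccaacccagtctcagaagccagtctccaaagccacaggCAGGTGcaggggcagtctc
Cldn4, chr5:134946885-134947184, reverse strand: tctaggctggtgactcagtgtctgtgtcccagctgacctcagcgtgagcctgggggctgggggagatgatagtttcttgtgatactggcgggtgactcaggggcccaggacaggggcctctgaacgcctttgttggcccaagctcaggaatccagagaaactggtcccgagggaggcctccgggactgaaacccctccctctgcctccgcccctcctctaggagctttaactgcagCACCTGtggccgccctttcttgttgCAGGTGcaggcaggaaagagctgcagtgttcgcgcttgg
Cldn7, chr11:69965171-69965470, forward strand: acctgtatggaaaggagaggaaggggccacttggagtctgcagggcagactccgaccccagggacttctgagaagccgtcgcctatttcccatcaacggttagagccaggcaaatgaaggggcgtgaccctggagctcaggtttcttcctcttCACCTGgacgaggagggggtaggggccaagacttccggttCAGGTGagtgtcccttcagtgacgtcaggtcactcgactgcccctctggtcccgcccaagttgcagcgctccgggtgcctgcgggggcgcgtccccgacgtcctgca
Ocln, chr13:100552669-100552968, reverse strand: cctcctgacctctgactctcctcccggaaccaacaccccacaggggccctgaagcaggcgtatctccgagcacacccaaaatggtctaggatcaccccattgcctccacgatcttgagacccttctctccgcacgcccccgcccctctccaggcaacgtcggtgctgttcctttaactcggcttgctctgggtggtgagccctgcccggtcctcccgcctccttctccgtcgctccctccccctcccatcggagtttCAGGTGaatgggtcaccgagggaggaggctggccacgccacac
Tjp1, chr7:65371195-65371494, reverse strand: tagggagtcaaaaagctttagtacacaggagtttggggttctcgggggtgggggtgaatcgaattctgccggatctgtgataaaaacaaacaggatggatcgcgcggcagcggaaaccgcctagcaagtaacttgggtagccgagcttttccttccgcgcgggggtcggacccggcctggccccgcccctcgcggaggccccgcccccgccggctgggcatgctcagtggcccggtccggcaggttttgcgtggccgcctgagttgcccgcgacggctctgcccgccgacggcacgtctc

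In these windows the letters begin 31 bases after the start site in Cldn3, 14 before and 11 after it in Cldn4, 97 and 57 before it in Cldn7, and 7 after it in Ocln, and the Tjp1 window, at a RefSeq start inside the longer GENCODE gene, holds none. The Cldn3, Cldn4 and Ocln windows use the start that GENCODE gives to the gene. The Cldn7 window is the second of a pair, and the first, at the GENCODE start, holds no such letters. All 9 genes had a window, 12 in all, and 8 of the 12 held CACCTG on either strand, from 6 genes. The genes without CACCTG were Cgn, which rose in SSM3, and Cldn1 and Tjp1, which were higher in J110. Among all 32851 RefSeq windows, 20.2% held it. The letters AACCNGTT, the core that Grainyhead-like activators are known to bind, were in 1 of the 12 windows, that of Cgn at 29 bases before its start, and in 2.09% of all windows. The motifs do not overlap each other in these windows, and a match describes letters and not binding.

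Among the proteins of the cytoplasmic plaque the ZO genes went in different directions. Tjp1 (ENSMUSG00000030516, chromosome 7 from 65296165 to 65527781, reverse strand) encodes ZO-1, the scaffold that binds claudin tails. It had 437, 479 and 389 counts in J110 and 111, 107 and 103 in SSM3, so every J110 library held more than 3 times the counts of any SSM3 library. In CPM these were 86.7 ± 7.11 and 22.6 ± 2.11 (SD, n = 3 each), log2 fold change -1.94 (SE 0.11; edgeR, adjusted p = 6.55e-11). Without TMM, a step whose removal shifted the median over all genes from -0.014 to 0.161, the Tjp1 value was -1.76.

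Tjp3 (ENSMUSG00000034917, chromosome 10 from 81273207 to 81291581, reverse strand), which encodes ZO-3, a scaffold found mainly in epithelia, had 7, 3 and 6 counts in J110 and 66, 71 and 50 in SSM3. Its level rose from 1.06 ± 0.411 to 13.2 ± 2.86 CPM (SD, n = 3 each), log2 fold change 3.60 (SE 0.33; edgeR, adjusted p = 3.34e-08). The 3′ end of Tjp3 shares 40 bp with Apba3 on the opposite strand, which had 60, 51 and 44 counts in J110 and 77, 45 and 20 in SSM3, so reads of this overlap are uncertain. The 95% intervals from the standard errors of Tjp1 and Tjp3 lay on opposite sides of 0, at -2.15 to -1.73 and 2.96 to 4.24. Tjp3 passed the filter only through SSM3, which fixed its direction, so the side of its interval is a description and no support.

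Cgn (ENSMUSG00000068876, chromosome 3 from 94760069 to 94786492, reverse strand) encodes cingulin, which links ZO proteins to actomyosin. It had 47, 40 and 48 counts in J110 and 452, 436 and 301 in SSM3. J110 was thus not at 0 but at 8.996 ± 1.05 CPM against 84.4 ± 21.6 CPM in SSM3 (SD, n = 3 each), where replicate 3 was lowest. This was log2 fold change 3.22 (SE 0.19; edgeR, adjusted p = 1.48e-10). Its paralog Cgnl1, for paracingulin, also named outside the rule, was at 118 ± 1.16 and 96.0 ± 9.21 CPM (SD, n = 3 each), log2 fold change -0.30 (SE 0.087; edgeR, adjusted p = 0.00567), which lost its call without TMM, at -0.12.

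F11r (ENSMUSG00000038235, chromosome 1 from 171437535 to 171464603, forward strand) encodes an immunoglobulin-like adhesion molecule that takes part in the first contacts and in polarity. It had 612, 653 and 541 counts in J110 and 1521, 1527 and 2057 in SSM3. The rise from 120.0 ± 8.32 to 357 ± 45.5 CPM (SD, n = 3 each), log2 fold change 1.57 (SE 0.093; edgeR, adjusted p = 1.56e-10), was the smallest of the 8 genes tested. J110 thus kept 33.6% of the SSM3 level of F11r, but 10.7% of that of Cgn, 8.04% of Tjp3 and 0.145% of Cldn4.

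**Figure D2:**
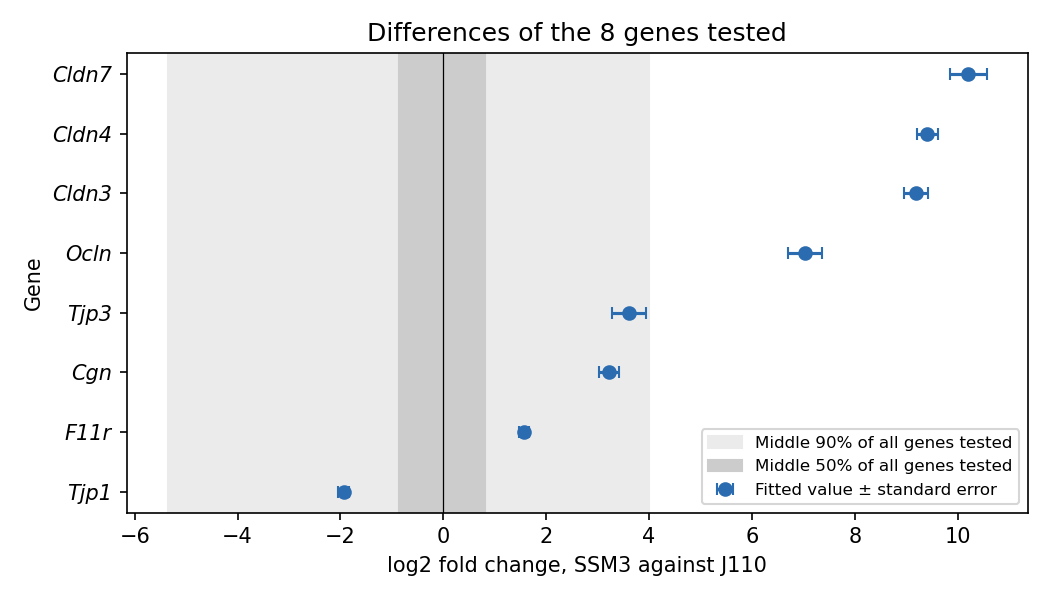
Fitted log2 fold change, SSM3 against J110, of the 8 genes tested, with bars of 1 standard error, over bands that hold the middle 50% and 90% of all genes tested. Cldn3, Cldn4, Cldn7 and Ocln lie beyond the 95th percentile of all genes, 3.99, while Tjp3, Cgn, F11r and Tjp1 lie within the middle 90%.

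By size, 6 of the 8 genes tested were called and fitted at least 8-fold higher in SSM3, as were 6.52% of all genes tested, but 5 of the 6 passed the filter only through SSM3 and had to differ, so the count describes them and is no support, and Cgn was the other. The median log2 fold change of the 8 genes, also set in part by the filter, was 5.32, against -0.014 over all genes tested, and with the filter of at least 10 counts in every library the 3 genes left had a median of 1.56. The genes whose 6 values in log2 CPM lay nearest to the mean profile of the 8 genes, each centred on its own mean, were Stc2, Tgm2, Fzd4, Dgat2 and Irx2, at root mean square distances from 0.106 to 0.179 among 9056 candidates. These distances are over 6 libraries of 2 lines and mainly restate the size of the difference between the lines.

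Beyond the 4 claudins of the set, 19 other claudin genes were listed. Of these, 7 had no count in any library, 4 were at or under 3 counts in every library, and 5 were tested, of which 1 rose and 4 fell in SSM3, against 38.6% and 39.2% of all genes tested. Cldn6, the 1 that rose, passed the filter only through SSM3. Of the 4, Cldn2, Cldn9 and Cldn18 were under 10 counts in every SSM3 library and passed the filter only through J110, and with every counted gene kept, Cldn8, Cldn10 and Cldn23 were also called higher in SSM3, at fitted log2 fold changes of 6.18, 5.59 and 4.48 (edgeR, adjusted p = 5.97e-07, 0.000115 and 1.35e-10), which made 4 higher and 4 lower under a filter that called 5434 of all 22592 genes higher and 5689 lower. Cldn18 had 550, 529 and 597 counts in J110 and 0, 1 and 0 in SSM3. Cldn2, which encodes a claudin that forms cation pores, had 198, 220 and 191 in J110 and 0, 1 and 0 in SSM3. Their ratios of counts in favour of J110 were 1590 (exact 95% counting interval 284.2 to 62670) and 576 (103 to 22800), with adjusted p = 7.69e-15 and 1.09e-12 from edgeR's test. The lone SSM3 count of each fell in replicate 2, and without it the fitted log2 fold changes went from -10.19 to -12.10 for Cldn18 and from -8.72 to -10.63 for Cldn2.

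Cldn9 had 56, 57 and 71 counts in J110 and 1, 1 and 0 in SSM3, a ratio of 87.0 (exact 95% counting interval 23.76 to 724.1; adjusted p = 3.12e-09 from edgeR's test). Cldn12 was counted in both lines and fell from 37.4 ± 1.75 to 8.85 ± 1.23 CPM in SSM3 (SD, n = 3 each), log2 fold change -2.08 (SE 0.15; edgeR, adjusted p = 1.91e-09). Cldn6, a claudin known from embryonic epithelia, was the only 1 of the 5 that rose. It had 17, 2 and 6 counts in J110 and 687, 702 and 734 in SSM3. Since J110 replicates 2 and 3 were under 10 counts, Cldn6 passed the filter only through SSM3, which set its direction. Fitted on the log2 scale, it rose by 6.47 (SE 0.22; edgeR, adjusted p = 1.12e-13), and by 7.46 without J110 replicate 1. J110 was thus not without claudin transcripts: the summed CPM of the 19 other claudins was 196 to 221 in J110 and 161 to 171 in SSM3. These sums leave out the 4 claudins of the set. Cldn3, Cldn4 and Cldn7 were at 249, 425 and 108 CPM in SSM3 and 0.412, 0.617 and 0.0696 CPM in J110. Cldn1 was higher in J110, at 1.65 against 0.423 CPM. Cldn5, the claudin of endothelium, had no count. Cldn8, Cldn10 and Cldn23 did not pass the filter, with at most 23 counts in an SSM3 library and at most 1 in a J110 library. Cldn23, which was also called higher in 4 of the 6 fits without 1 library, had 23, 17 and 9 counts in SSM3 against 1, 0 and 1, a ratio of 25.9 (exact 95% counting interval 6.796 to 219.8).

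**Figure D3:**
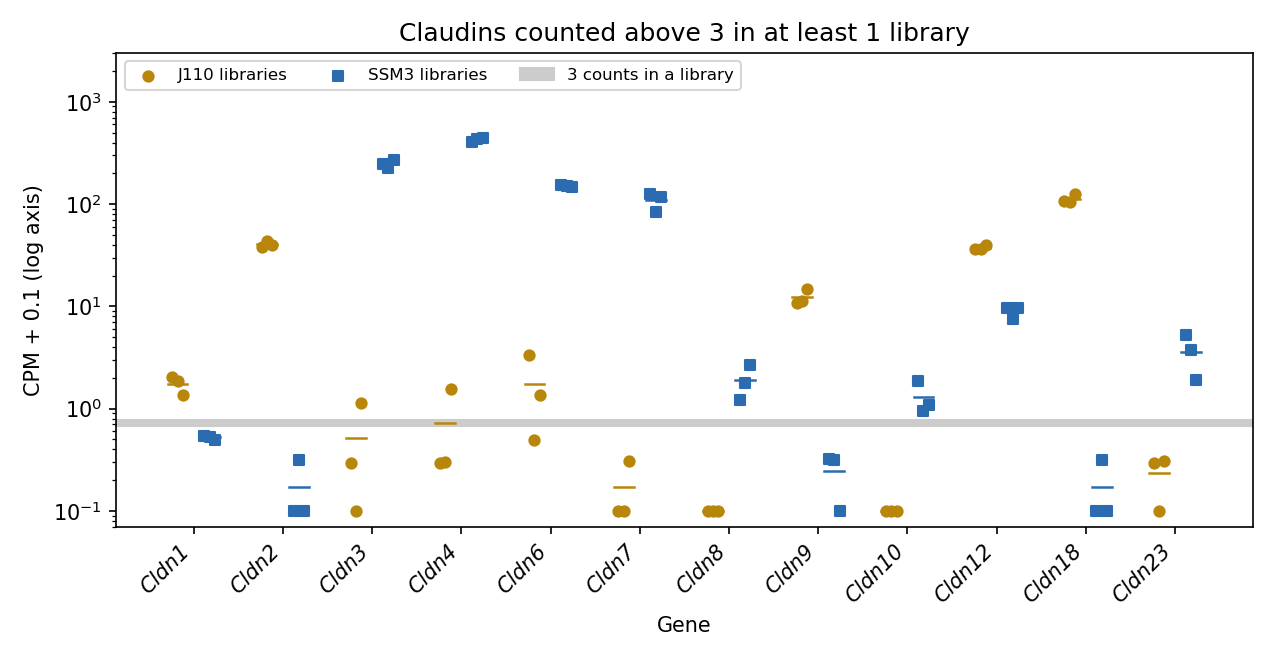
CPM plus 0.1 on a log axis for the 12 claudin genes with more than 3 counts in a library, with circles for J110, squares for SSM3, short lines for the mean of a line and a grey band for 3 counts in a library. Cldn3, Cldn4, Cldn6 and Cldn7 stand high in SSM3 alone, Cldn2, Cldn9 and Cldn18 in J110 alone, and Cldn12 is counted in both.

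The proteins of tricellular contacts and the other MARVEL proteins, the family of occludin, came to 5 genes, of which 4 were tested and called higher in SSM3, as were 38.6% of all genes tested. Marveld2, Marveld3 and Ildr1 were under 10 counts in every J110 library and passed the filter only through SSM3, so their direction was fixed by it, and Lsr alone was counted in both lines. Marveld3 had no count in J110 and 141, 131 and 162 in SSM3, and was at least 48.7-fold higher against a floor of 3 counts per library (adjusted p = 3.21e-11 from edgeR's test). Marveld2, which encodes tricellulin, had 0, 0 and 4 counts in J110 and 137, 154 and 192 in SSM3, log2 fold change 6.86 (SE 0.38; edgeR, adjusted p = 7.55e-11), which became 10.37 without J110 replicate 3. Lsr, an angulin that recruits tricellulin, rose from 11.9 ± 1.25 to 529 ± 18.8 CPM (SD, n = 3 each; log2 fold change 5.47, adjusted p = 1.03e-16). It shares 946 bp of exon with Gm4673 on the opposite strand, which had counts from 59 to 65 in J110 and from 2066 to 2503 in SSM3, so that the reads of the pair cannot be told apart. Ildr1, another angulin gene, named after its values were seen, had 2, 1 and 1 counts in J110 and 89, 91 and 90 in SSM3.

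Of 6 other junctional adhesion molecules and relatives, 3 were tested and called lower in SSM3, as were 39.2% of all genes tested. Jam2 and Esam were under 10 counts in every SSM3 library and passed the filter only through J110, which fixed their direction, and Cxadr alone was counted in both lines. Igsf5, named after its values were seen, was not tested and had 1, 0 and 1 counts in J110 and 4, 4 and 3 in SSM3, the direction of F11r. Jam2, an adhesion molecule of endothelium and other tissues, had 264, 252 and 256 counts in J110 and 0, 1 and 0 in SSM3, a ratio of 730.0 in favour of J110 (exact 95% counting interval 130.7 to 28890; adjusted p = 2.37e-13 from edgeR's test), and its fitted log2 fold change went from -9.07 to -10.98 without SSM3 replicate 2. Cxadr, the coxsackievirus and adenovirus receptor, changed less, from 63.7 ± 3.49 to 38.9 ± 2.40 CPM (SD, n = 3 each; log2 fold change -0.71, adjusted p = 4.24e-06). Esam, named after its values were seen, had 33, 38 and 31 counts in J110 and 0, 1 and 0 in SSM3. Jam2 and Esam are known from endothelium, and of the endothelial markers Cdh5 was also high in J110, with 836, 790 and 856 counts against 0, 2 and 0. Pecam1, Kdr, Tek, Tie1 and Emcn had at most 11 counts in any library, Tie1 and Emcn none, and the 6 markers together summed to 158 to 181 CPM in J110 and 0 to 0.425 CPM in SSM3.

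All 15 other plaque genes were tested, and their median log2 fold change was -0.57. Of them, 5 rose and 10 fell in SSM3, where 77.9% of all genes tested were called, 38.6% higher and 39.2% lower. Of these calls, 2 were fragile: Arhgef2, at -0.20, lost its call in 11 of the 19 alternatives, among them leaving out J110 replicate 2, J110 replicate 3 or any 1 SSM3 library (log2 fold changes from -0.22 to -0.17), and Sympk, at 0.32, in 9 of the 19, among them upper quartile scaling, DESeq2, thinning and leaving out J110 replicate 1, J110 replicate 3 or SSM3 replicate 3 (0.25 to 0.33). Of those named by rule, Amotl2, which encodes an angiomotin-like protein, fell from 85.1 ± 4.65 to 12.6 ± 2.09 CPM (SD, n = 3 each; log2 fold change -2.76, adjusted p = 3.56e-12 from edgeR's test). The scaffold genes Magi1 and Magi3 fell with log2 fold changes of -1.71 and -1.17, Tjap1 with -1.11 and Ybx3, which encodes a ZO-1 partner that binds nucleic acids, with -0.77. Mpdz, a scaffold gene named after its values were seen, passed the filter only through SSM3, with 4, 2 and 4 counts in J110 and 78, 104 and 84 in SSM3 (log2 fold change 4.76, adjusted p = 4.90e-10). Magi3, Tjap1 and Ybx3 were among the genes not called for a change beyond 2-fold. The plaque genes thus differed in direction among themselves, as Tjp1, Tjp3 and Cgn did.

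**Figure D4:**
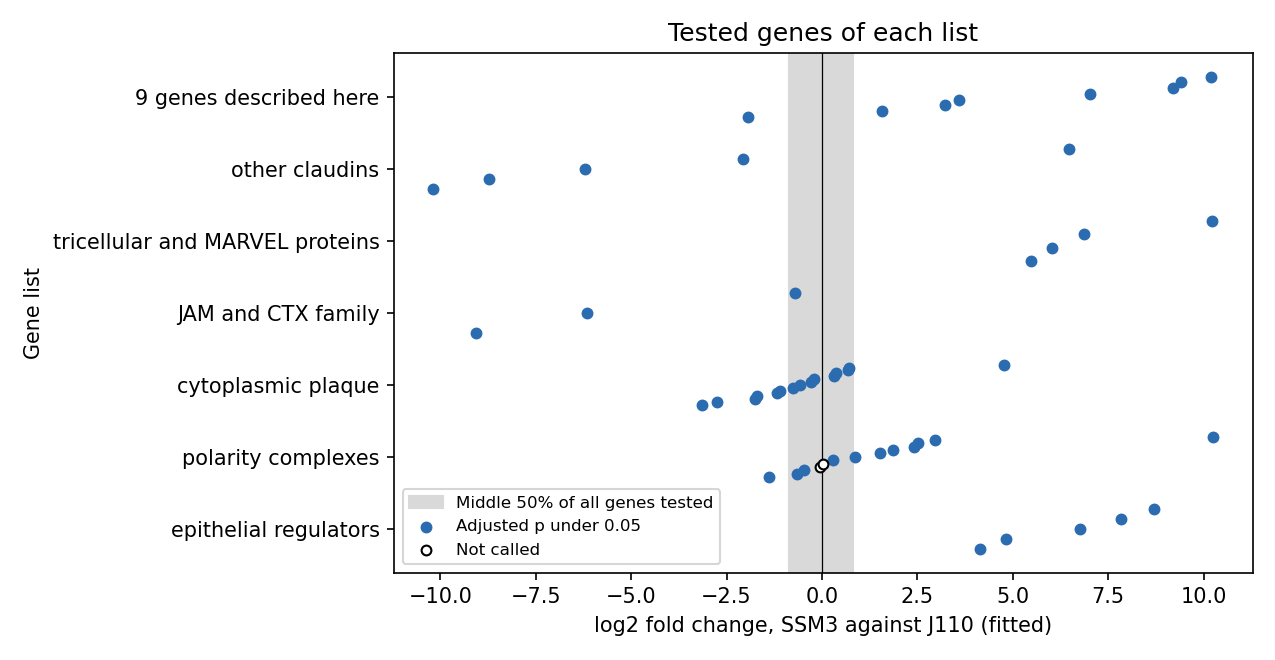
Fitted log2 fold changes, SSM3 against J110, of the tested genes in the set of 9 and in 6 other lists, with filled points for an adjusted p under 0.05, open points for genes not called, and a band for the middle 50% of all genes tested. The tricellular and MARVEL genes and the epithelial regulators lie to the right, the JAM and CTX genes to the left, and the plaque and polarity genes on both sides.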

How the data were processed

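Counts of J110 and SSM3 cells were used for all 6 libraries. The authors made QuantSeq 3′ libraries, trimmed reads with cutadapt (version 2.1), mapped them to mm10 with HISAT2 (version 2.0.4), counted them per gene with featureCounts of Subread (version 2.0.0) and deposited raw counts without normalisation. The strand setting and the treatment of reads over several genes are not given in the sources used here. Of the gene identifiers, 52489 (99.7%) matched GENCODE M21 on GRCm38.

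After filterByExpr and TMM scaling over all counts, lines were compared by quasi-likelihood F-tests in edgeR (version 4.0.16, R 4.3.3) at an adjusted p under 0.05. Total counts and 3 replicates per line set the precision. In data simulated from these libraries with 200 of 12284 genes changed 2 log2 units, 98.0% were recovered, and 9 of 205 calls were unchanged genes. With so few genes changed, it does not show how scaling or false calls behave where 77.9% of genes were called. Exon overlaps came from bedtools (version 2.31.1). Replicates differed by more than sampling noise (chi-square per degree of freedom 2.29 to 6.01). Nothing says that replicate numbers are paired.

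The genes, lists and motifs were chosen with earlier results of these data known. Besides the 9 genes, the text names by rule every called claudin and, per list, up to 5 called genes of at least 10 CPM with the largest change. The 19 alternatives covered DESeq2 (version 1.42.0), limma-voom (limma 3.58.1), scaling, filters, thresholds, depth, the ribosomal RNA locus, a replicate block and libraries left out. Some items are not reported here.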

Additional observations from a re-analysis of the deposited data

How the results depend on the processing

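All 8 tested tight junction genes kept their direction and call in each of the 147 values that the 19 alternatives gave, except that a filter of at least 10 counts in every library left only 3 of them to test, all called (median log2 fold change 1.56), by construction. That filter also left 27 genes of the 6 other lists to test, of which 25 were called, against 43 of 45, and 7288 of 9686 genes in all. With every gene that had a count, Cldn1 entered and the median was 3.62 over 9 genes. glmTreat beyond 2-fold called 4272 genes of all against 9566, and 28 in the other lists. Leaving out each library in turn gave 8 calls among the tight junction genes throughout, medians from 5.12 to 5.82, 42 to 43 calls in the other lists and 9275 to 9572 over all genes. Without both J110 replicate 3 and SSM3 replicate 2, all 8 were called (median 5.06). The replicate block gave 9481 calls over all genes and 8 among the tight junction genes. Same-numbered libraries did not deviate together (correlations 0.012, 0.015 and 0.027), so the numbers were not taken as pairs. Without TMM 56.5% of the calls were higher in SSM3, against 49.6%. Of 950 values of other genes, 907 kept their direction and side of the threshold. The uncalled Pard6b turned to 0.00 with upper quartile scaling and to -0.05, -0.03, -0.05 and -0.08 without J110 replicate 3 and SSM3 replicate 2 together, J110 replicate 1, J110 replicate 3 and SSM3 replicate 1, and the uncalled Llgl1 to 0.13 without TMM and 0.11 without SSM3 replicate 3. Over all single libraries left out, Pard6b ranged from -0.08 to 0.15 and Llgl1 from -0.20 to 0.11. Depth limits the size of the change where a line has few counts: Cldn1 had 6 in SSM3, and Cldn3, Cldn4, Cldn7 and Ocln had 6, 9, 1 and 3 in J110.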

Other observations

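Genes of the apical polarity complexes, which place tight junctions along the side of an epithelial cell, were not all higher in SSM3. All 13 listed genes were tested, and their median log2 fold change, SSM3 against J110, was 0.86. Of them, 8 rose, 3 fell and 2 were not called, where 77.9% of all genes tested were called, 38.6% higher and 39.2% lower. Crb3, an apical membrane protein gene and the only 1 of the 13 that passed the filter only through SSM3, which fixed its direction, had no count in J110 and 147, 139 and 160 in SSM3, at least 50.1-fold higher against a floor of 3 counts per library (edgeR, adjusted p = 2.28e-11). Patj, whose protein binds ZO-3 and claudins, rose from 5.39 ± 0.303 to 42.3 ± 4.07 CPM (SD, n = 3 each; log2 fold change 2.97, adjusted p = 4.11e-11). Pard6a rose with a log2 fold change of 2.52, Llgl2 with 2.40 and Prkcz with 1.87. Of the genes that fell, Prkci, which encodes the other atypical protein kinase C and was named after its values were seen, had counts of 276, 214 and 251 in J110 and 126, 90 and 49 in SSM3 (log2 fold change -1.39, adjusted p = 3.25e-05). Pard6b and Llgl1 had log2 fold changes of 0.03 (95% interval from the standard error -0.39 to 0.45) and -0.04 (-0.28 to 0.20).

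Transcription factors known to promote epithelial junction genes were also listed. Of 7, 5 were tested and called higher in SSM3, as were 38.6% of all genes tested, but all 5 were under 10 counts in every J110 library and passed the filter only through SSM3, so their direction was fixed by it. Grhl2, a Grainyhead-like activator, had 0, 1 and 2 counts in J110 and 129, 127 and 92 in SSM3, a ratio of counts of 123 (exact 95% counting interval 41.61 to 597.4; edgeR, adjusted p = 2.60e-10). It shares 169 bp of exon with Gm16136 on the opposite strand, which had no count in J110 and 225, 249 and 253 in SSM3, so the Grhl2 count is uncertain. Ovol2 had 0, 0 and 1 counts in J110 and 92, 96 and 111 in SSM3, a ratio of 316 (exact 95% counting interval 56.29 to 12520; adjusted p = 4.91e-11). Most of the J110 counts of both fell in replicate 3, without which the fitted log2 fold changes went from 6.77 to 7.63 for Grhl2 and from 7.83 to 9.68 for Ovol2. Whether these factors bear on the claudin counts was not tested.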
